A study of Chlamydomonas reinhardtii with 18 samples.

Results

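Described here are 66 genes of the green alga *Chlamydomonas reinhardtii* whose transcripts were low after 24 h of nitrite and steady over the same day in untreated darkness. They were picked from the measured values, out of 13564 genes with enough reads to test and 17766 features in the deposited tables. A member had a mean in the 24 h nitrite libraries of at most 0.4 times the 24 h control mean. Its 24 h control mean was between 0.67 and 1.5 times the 15 min control mean and was at least 5 CPM (reads scaled to a common library size), with 0.5 CPM added to every mean before a ratio was formed. The 24 h difference and the steadiness of the controls are therefore descriptions, with no test. The libraries of 3 h in both arms and the nitrite libraries of 15 min were not used by the rule, and they carry the results below.

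The series sequenced polyadenylated RNA of strain 6145c, a unicellular culture grown and treated in darkness at 25 °C. Treated flasks received 10 mM nitrite, control flasks received no nitrite, and darkness was common to all. Each of the 6 groups (nitrite and control at 15 min, 3 h and 24 h after the addition) held 3 libraries, 1 per flask, and the 3 flasks of an arm supplied all of its times, so the 3 h libraries are not a separate experiment. The study is titled for the formation of nitrous oxide in this alga.

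Nitrite is an intermediate of nitrate assimilation in green algae. In the light it is reduced to ammonium in the chloroplast by nitrite reductase, which takes its electrons from ferredoxin. Nitrite can also be reduced to nitric oxide, a signalling molecule and a precursor of nitrous oxide. The deposited tables and the gene table used here pair no member with a gene name or product, so members are given by identifier, with the chromosome in the first digits after "Cre", and no role is assigned to any of them. All 66 members were nuclear loci found in the gene table of assembly Chlamydomonas_reinhardtii_v5.5. CPM is not corrected for transcript length, so levels are compared between libraries and not between genes. A lower share of reads cannot be told apart from a change in how many cells carry the transcript or in the RNA of each cell.

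Libraries held 6695500 to 8469882 reads in genes. Some stood apart from their groups. On the second principal component of all genes, which held 12.5% of the variance, nitrite 15 min number 2 lay at -12.4, where the others of that group had 43.4 and 42.5, and nitrite 3 h number 2 lay at 46.2, where its companions had -13.4 and -15.6. On this component each of them thus lay with the nitrite libraries labelled for the other time. Their labels were not tested, and both are kept under them. In control 3 h number 3, alignments that were not unique made up 36.5% of everything counted, against 16.7% to 21.6% elsewhere. Many of the counts for 15 min and 3 h are given both with and without these 3 libraries. Control 24 h number 3 lay at 69.0 on the first component, nearer to the nitrite libraries of that time (116.7 to 120.6) than the other controls (51.2 and 54.8).

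Low levels with nitrite at 24 h were shared with other genes, and the demand for steady controls is what separates the members. Of 166 genes that met the limit on the 24 h ratio and the limit on level, 66 had steady controls, 75 had lower controls at 24 h than at 15 min and 25 had higher ones. Among all 4698 genes with steady controls of at least 5 CPM, the other 4632 did not meet the limit on the 24 h ratio.

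**Figure D1:**
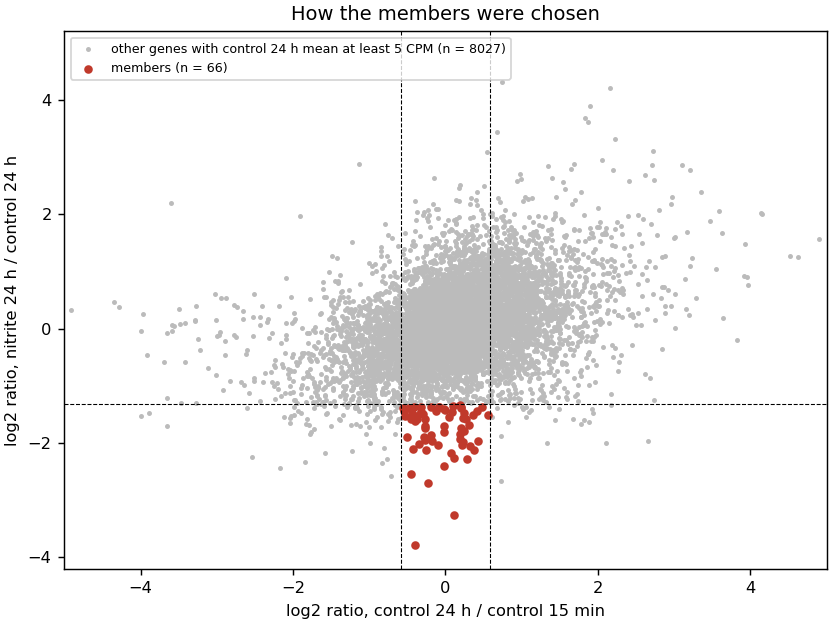
Log2 ratio of 24 h nitrite to 24 h control means (vertical) against log2 ratio of 24 h to 15 min control means (horizontal), 1 point per gene with a 24 h control mean of at least 5 CPM and within the axes, and dashed lines at the limits of the rule. The 66 members (red) fill the box below the horizontal line and between the vertical ones, next to other genes that continue past every limit.

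The members were mostly genes of modest level, and the drop at 24 h was usually near 3-fold with 0.5 CPM added to the means. Mean CPM of the members at 24 h ran from 0.668 to 25.8 with nitrite (median 3.02) and from 5.17 to 108 without (median 11.6). Summed over its 3 libraries, a member had 12 to 460 reads with nitrite (median 54) and 120 to 2503 without (median 269). The ratio of nitrite to control, with 0.5 CPM added to both means, ran from 0.0727 to 0.396 with a median of 0.334. On that scale the control mean was 2.52 to 13.8 times the nitrite mean, and the added 0.5 CPM makes the ratio of the plain means larger. In 28 members the ratio was at most 0.3, and in 15 at most 0.25. Across 24 h of untreated darkness the members' ratio of 24 h to 15 min controls had a median of 0.942 and a range of 0.681 to 1.47.

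Genes on either side of the limits had nearly the same values. Just inside the 24 h limit were Cre06.g307100 (0.396) and Cre12.g496350 (0.389), and just outside it Cre06.g290400 (0.401) and Cre13.g587850 (0.401). At the lower limit for the controls the nearest members were Cre10.g422000 (0.681) and Cre06.g304250 (0.687), with Cre02.g098450 (0.665) and Cre01.g049200 (0.657) outside. At the upper limit these were Cre09.g394102 (1.47) and Cre03.g196550 (1.40), with Cre16.g677600 (1.53) and Cre02.g145451 (1.60) outside. At the limit on level the control means were 5.17 CPM for Cre10.g446500 and 5.46 CPM for Cre16.g689300 inside, and 4.82 CPM for Cre01.g041000 and 4.78 CPM for Cre07.g337200 outside.

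The lowest ratio belonged to Cre08.g358560. At 24 h it stood at 0.538, 0.682 and 0.945 CPM with nitrite, which is 3, 4 and 6 reads, and at 24.7, 20.1 and 4.09 CPM without. At 15 min it had 27.8, 11.7 and 27.4 CPM with nitrite and 26.3, 20.2 and 18.6 CPM without, so the groups overlapped. At 3 h it had 11.1, 30.4 and 9.63 CPM with nitrite and 24.5, 21.4 and 16.1 CPM without, again overlapping. Number 2 was the low library of the nitrite arm at 15 min and the high one at 3 h.

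Cre10.g421150, next but one in order of the ratio, had the same layout at a higher CPM. Its nitrite libraries held 9.51, 13.1 and 9.92 CPM at 24 h, against 99.8, 81.8 and 37.7 CPM in the controls. At 3 h they held 59.2, 107 and 50.0 CPM, against 95.9, 52.0 and 56.1 CPM. The 3 h groups overlapped, and the 24 h groups did not, although control number 3 was the lowest of its group there.

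Cre06.g278235 and Cre10.g446500 were low in reads at 24 h. Cre06.g278235 had 7, 1 and 5 reads with nitrite (1.26, 0.170 and 0.787 CPM), and 9.28, 6.96 and 3.81 CPM without. Cre10.g446500 had 4, 2 and 6 reads with nitrite (0.717, 0.341 and 0.945 CPM), and 6.4, 5.84 and 3.27 CPM without. Neither gene's groups overlapped at 24 h, and the size of both ratios rests on few reads. Cre09.g406700 completed the 6 lowest ratios besides Cre10.g463370, described with the 3 h results. It had 3.95, 5.97 and 4.88 CPM with nitrite and 30.8, 31.3 and 22.1 CPM without at 24 h, after 27.5, 34.8 and 22.0 CPM with nitrite and 35.5, 18.7 and 17.1 CPM without at 3 h.

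Among the members with the highest control CPM, Cre03.g144564 had 23.7, 27.8 and 26 CPM with nitrite and 112, 131 and 81.1 CPM without at 24 h. Cre16.g672609 had 5.92, 6.99 and 10.9 CPM with nitrite and 41.8, 43.8 and 34.6 CPM without. Cre09.g391023 had 13.3, 11.4 and 15.9 CPM with nitrite and 42.2, 44.0 and 33.1 CPM without. In these 3 genes the groups stood clear of each other, with control number 3 the lowest control. Cre17.g696700 differed from them within its controls. It had 10.6, 18.7 and 11.8 CPM with nitrite and 22.2, 36.8 and 78.9 CPM without, so that control number 3 was more than the other controls together.

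At 24 h the nitrite and control libraries did not overlap in 64 of the 66 members, where the background over all tested genes was 23.2%. The rule used this contrast, so the count describes the choice. Cre14.g615350 and Cre16.g680902 were the exceptions, each through control number 3, at 4.50 CPM in Cre14.g615350 (nitrite 5.38, 3.75 and 3.78 CPM; other controls 17.4 and 16.7 CPM). Control 24 h number 3 was the lowest control in 56 of the 66 members (84.8%) and in 36.9% of all tested genes. Its ratio to the mean of numbers 1 and 2 had a median of 0.638 in the members and a range of 0.182 to 2.67, and it was under 0.5 in 15 of them. Choosing members without that library gave 99 genes, of which 58 were among the 66. Its part in the membership was measured only in that way.

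**Figure D2:**
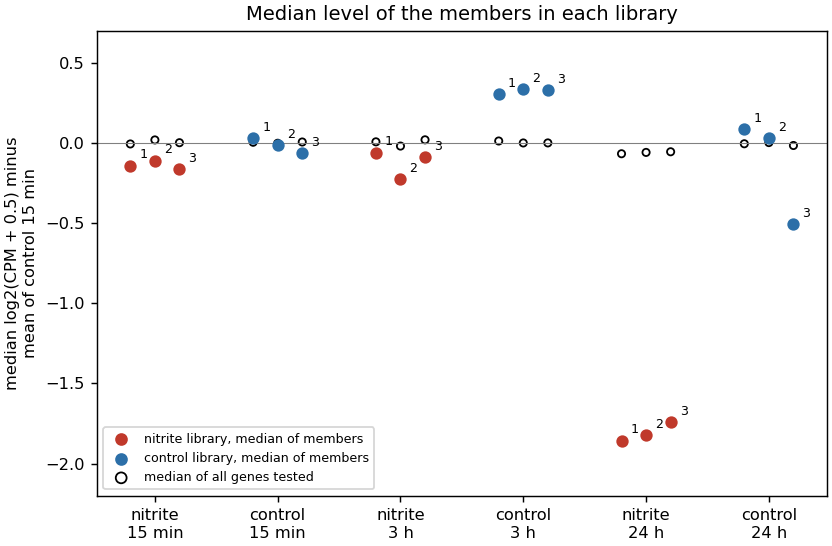
Median over the 66 members of log2(CPM + 0.5) minus the mean of the 15 min controls, in each of the 18 libraries (red, nitrite; blue, control; numbers are replicate numbers), with the same median over all tested genes as open circles. The nitrite libraries of 24 h sit between -1.86 and -1.74, the control libraries of 3 h between 0.31 and 0.34, and control 24 h number 3 at -0.50, while the medians of all genes stay between -0.07 and 0.02.

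At 3 h, long before the time used to choose them, most members already stood a little lower with nitrite than without. The log2 fold change of nitrite over control ran from -1.47 to 0.35 with a median of -0.39, against a median of -0.02 over all tested genes. It was below 0 in 58 of 66 members, and in 51.6% of all tested genes. With library totals alone in place of TMM scaling, the median of the members was -0.09 and that of all genes 0.29, so the members lay about as far below all genes as before.

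Of the 66 members, 6 were called lower with nitrite than without at 3 h in edgeR's quasi-likelihood test (9.09%, adjusted p under 0.05 over all tested genes), and 0 higher. The background was 0.774% for genes called lower and 1.95% for genes called higher. Among the 4632 genes with steady controls that were not low at 24 h, 45 were called lower (0.972%). The calls compare the arms at 3 h and do not show a fall over time. An unadjusted p under 0.05 in either direction was reached by 26 members (39.4%, background 22.4%). Without the 3 libraries that stand apart it was reached by 19 (28.8%, background 16.1%). Among those 4632 genes the shares were 28% and 16.5%. The libraries of both arms did not overlap, nitrite below control, in 25 members (37.9%, background 12%), and the reverse held in 0 members (background 10.8%). With the libraries that stand apart left out, these groups of 2 did not overlap, nitrite lower, in 41 members (62.1%, background 25.2%). The fold change was then below 0 in 59 members (89.4%, background 50.7%).

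Other genes low at 24 h had like values at 3 h. The 100 genes low at 24 h whose controls were not steady had a median log2 fold change of -0.42 at 3 h, below 0 in 89 of them. Of these 100, 5 were called lower, 41 reached an unadjusted p under 0.05 in either direction, and in 44 the groups did not overlap with nitrite lower. Their values were thus about those of the members, and the sets were not tested against each other.

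Cre04.g223050 had the lowest fold change of nitrite over control at 3 h. It stood at 21.8, 11.9 and 11.5 CPM with nitrite and at 41.7, 39.2 and 44.2 CPM without. The log2 fold change was -1.47 (edgeR adjusted p = 0.0448, SE 0.38). No nitrite library came within reach of a control library. At 15 min the groups overlapped, at 13.9, 21.9 and 13.4 CPM with nitrite and 32.1, 13.2 and 16.5 CPM without. At 24 h it had 4.48, 5.45 and 2.68 CPM with nitrite and 23.0, 20.4 and 7.36 CPM without.

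Cre10.g463370 had the next lowest fold change at 3 h and also the second lowest 24 h ratio. At 3 h it had 8.04, 12.9 and 8.64 CPM with nitrite and 23.2, 30.5 and 21.3 CPM without, which is a log2 fold change of -1.34 (edgeR adjusted p = 0.0329, SE 0.32). The highest nitrite library was well under the lowest control. At 24 h the nitrite libraries were down to 1.08, 1.19 and 1.89 CPM, against 22.2, 22.5 and 8.04 CPM in the controls, whose mean was 9.59 times as high on the scale with 0.5 added. It was the only one of the 6 that still passed without the 3 libraries that stand apart, with a log2 fold change of -1.67 and an edgeR adjusted p of 0.0314, in a range of 0.00582 to 0.204 over all alternatives.

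Cre16.g680300 was lower with nitrite at all 3 times without overlap. It had 7.38, 6.59 and 6.60 CPM with nitrite and 12.3, 9.12 and 8.60 CPM without at 15 min. At 3 h it had 6.11, 8.04 and 6.54 CPM with nitrite and 11.7, 11.3 and 18.8 CPM without (log2 fold change -0.98, edgeR adjusted p = 0.0458, SE 0.26). At 24 h it had 2.69, 2.90 and 1.89 CPM with nitrite and 13.7, 14.8 and 6.68 CPM without. The 15 min difference did not pass the test.

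Cre16.g688050 had close levels within each arm at 3 h. It stood at 22.3, 17.5 and 20.7 CPM with nitrite and 33.1, 33.2 and 35.8 CPM without, which is a log2 fold change of -0.75 (edgeR adjusted p = 0.0329, SE 0.18). Its nitrite level at 3 h (mean 20.2 ± 2.44 CPM, SD, n = 3) was close to that at 15 min (20.7 ± 2.21 CPM), while the control level was 34 ± 1.58 CPM at 3 h and 17.6 ± 1.33 CPM at 15 min. At 24 h it had 3.95, 6.31 and 3.62 CPM with nitrite and 20.3, 17.4 and 14.6 CPM without.

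The remaining members called lower at 3 h were Cre03.g210177 and Cre06.g278400. Cre03.g210177 had 29.6, 27.2 and 33.7 CPM with nitrite and 43.7, 54.3 and 54.4 CPM without (log2 fold change -0.75, edgeR adjusted p = 0.036, SE 0.18). Cre06.g278400 had 34.2, 34.6 and 41.1 CPM with nitrite and 48.9, 58.1 and 64.0 CPM without (-0.64, edgeR adjusted p = 0.0432, SE 0.17). Neither gene's groups overlapped at 3 h, and at 15 min every nitrite library of both was also under every control, without passing the test. At 24 h Cre03.g210177 had 18.8, 14.3 and 13.7 CPM with nitrite and 46.4, 47.9 and 29.8 CPM without. At that time Cre06.g278400 had 15.8, 11.6 and 15.6 CPM with nitrite and 40.5, 38.2 and 35.6 CPM without.

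**Figure D3:**
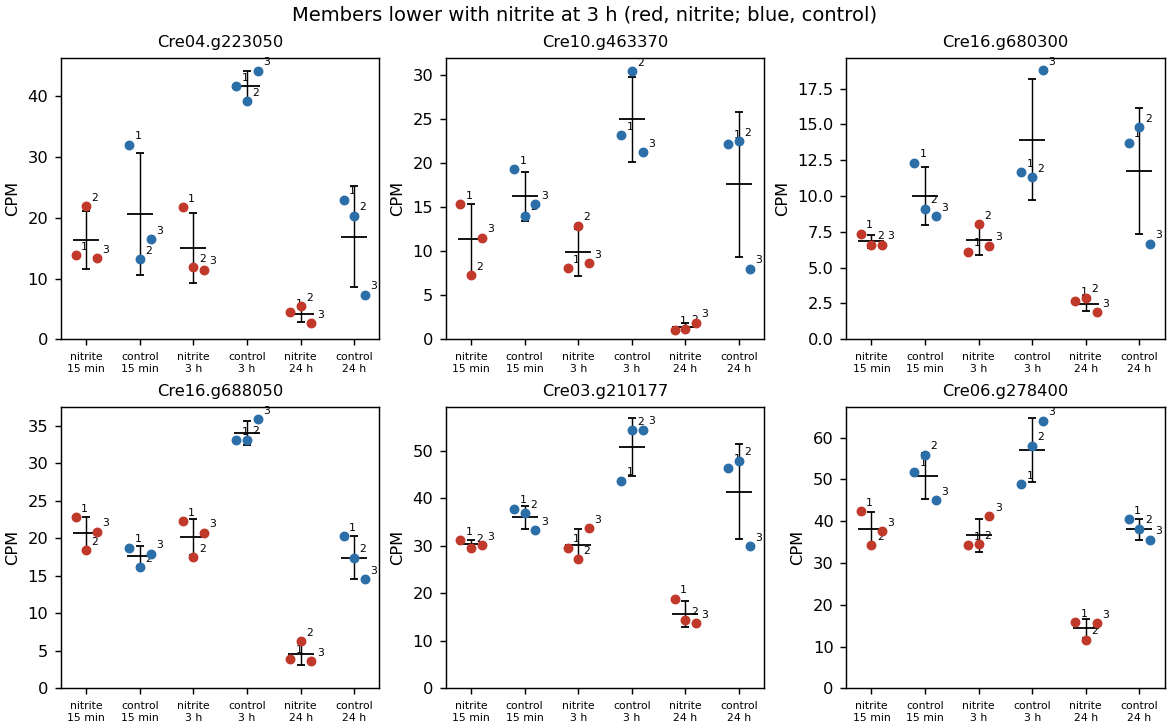
CPM in each library of the 6 members called lower with nitrite than without at 3 h (red for nitrite, blue for control). Numbers are replicate numbers, bars are mean and SD of 3 libraries, and the linear axis starts at 0. In every panel the 3 nitrite libraries of 3 h lie below the 3 controls of 3 h, and the nitrite libraries of 24 h are the lowest group.

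The 6 calls depend on the libraries, on the fit and on the scaling. Leaving out nitrite 3 h number 2, control 3 h number 2 or control 3 h number 3 left 0 members called, with 0.0728%, 0.0145% and 0.0725% of all genes called lower. Leaving out nitrite 3 h number 1 left 2 (all genes 0.182%) and number 3 left 3 (0.769%). Leaving out control 3 h number 1 gave 12, among them all 6, while the share of all genes was 4.05%. A fit to the compared groups alone called 0 members (all genes 0.0237%), and library totals alone called 0 (0.0221%). With the 3 libraries that stand apart left out, 2 members were called lower (3.03%, background 0.729%) and 0 were called higher (background 0.963%). The 2 were Cre10.g463370 and Cre10.g420850. Cre10.g420850 stood at 23.6 and 26.5 CPM with nitrite and at 46.0 and 53.0 CPM without (log2 fold change -0.97, edgeR adjusted p = 0.0195). It had 33.9 and 42.5 CPM in the nitrite and control libraries left out, and in the fit to all libraries its edgeR adjusted p was 0.0715. The sign of the 3 h fold change stayed negative for all 6 under every alternative tried.

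Depth of the 24 h drop and the 3 h difference did not go together in every member. Of the 6 lowest 24 h ratios, Cre10.g463370 alone passed the test at 3 h. The log2 fold changes at 3 h of the others were -0.28 for Cre08.g358560, 0.08 for Cre10.g421150, -0.70 for Cre06.g278235, 0.22 for Cre09.g406700 and -1.02 for Cre10.g446500. Cre10.g446500 came nearest, at 8.15, 2.87 and 7.29 CPM with nitrite and 8.29, 14 and 15.1 CPM without (edgeR adjusted p = 0.12, SE 0.38). Its nitrite libraries lay below its controls, number 1 of each arm being almost level. The sign for Cre10.g421150 turned without nitrite 3 h number 2, control 3 h number 2 or control 3 h number 3. That for Cre09.g406700 turned without the 3 libraries that stand apart.

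Among the high-CPM members, Cre09.g391023 had 43.5, 40.7 and 47.0 CPM with nitrite and 58.8, 66.0 and 58.6 CPM without at 3 h. Its groups did not overlap, at a log2 fold change of -0.48 and an edgeR adjusted p of 0.0859 (0.0196 in DESeq2, which made it a call). Cre03.g144564 had 59.7, 98.4 and 66.2 CPM with nitrite and 102, 102 and 96.9 CPM without (-0.42), and its number 2 reached the controls. Cre16.g672609 had 36.0, 23.7 and 39.8 CPM with nitrite and 44.7, 46.3 and 37.8 CPM without (-0.38), with overlap. Cre17.g696700 had 40.3, 56.1 and 28 CPM with nitrite and 48.4, 63.2 and 69.0 CPM without (-0.53), also with overlap. None of these 4 passed the test at 3 h. The members just inside the 24 h limit, Cre06.g307100 and Cre12.g496350, had -0.24 and -0.23, and both signs turned without TMM scaling.

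Against the general direction, 8 members had a 3 h fold change above 0. They were Cre12.g523000 (0.35), Cre06.g304250 (0.31), Cre09.g406700 (0.22), Cre04.g233102 (0.18), Cre10.g421150 (0.08), Cre09.g389900 (0.08), Cre16.g677100 (0.04) and Cre06.g288908 (0.03), named here after their values were seen. None passed the test. Cre12.g523000 had 10.3, 11.3 and 15.3 CPM with nitrite and 17.6, 7.23 and 1.98 CPM without. Cre06.g288908 had 9.33, 5.17 and 7.90 CPM with nitrite and 12.5, 6.94 and 0.494 CPM without. In both, control 3 h number 3 was far below the other controls.

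**Figure D4:**
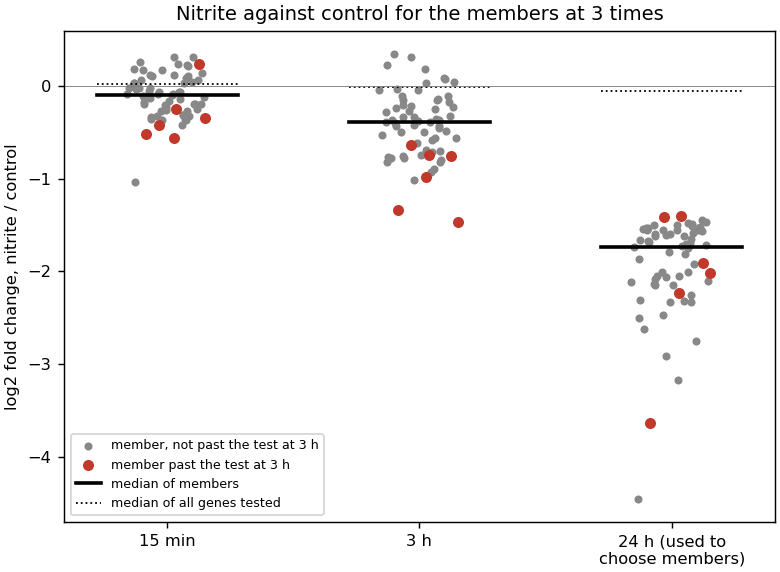
Fitted log2 fold change of nitrite over control for the 66 members at 15 min, 3 h and 24 h (1 point per member; the 24 h values chose the members), with the 6 members that passed the test at 3 h in red, solid bars at the members' median and dotted bars at the median of all tested genes. The members' median lies at -0.10 at 15 min and -0.39 at 3 h, and the 6 marked members spread over much of the 24 h range.

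At 15 min the members' median difference between the arms was smaller than at 3 h, and more members were lower with nitrite than higher. The 15 min contrast shares its controls with the rule, so it is given as values. The log2 fold change ran from -1.04 to 0.32 with a median of -0.10, against 0.02 over all tested genes, and it was below 0 in 44 of 66 members (all genes 48%). By edgeR's adjusted p, 0 members were called lower and 0 higher, against a background of 0% and 0.0295%, and DESeq2 called 0. An unadjusted p under 0.05 occurred in 3 members (background 8.12%). Nitrite libraries lay below controls without overlap in 10 members (background 7.51%) and above them in 2 (background 6.97%). Without the 3 libraries that stand apart these were 25 (37.9%, background 17.2%) and 5 (7.58%, background 18.2%). The fold change was then below 0 in 52 members (78.8%, background 55%), and 5 members reached an unadjusted p under 0.05 (7.58%, background 15.6%).

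The lowest value at 15 min was that of Cre08.g369400. It had 2.57, 4.43 and 1.75 CPM with nitrite and 5.58, 5.61 and 6.74 CPM without. The groups did not overlap, and number 2 was the nitrite library nearest to the controls. Without the 3 libraries that stand apart it was the 1 member called at 15 min (background 0.306% lower and 1.92% higher), with a log2 fold change of -1.49 (edgeR adjusted p = 0.00596, SE 0.30). At 3 h it had 4.29, 2.20 and 5.93 CPM with nitrite and 4.93, 8.5 and 8.65 CPM without, with overlap.

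The nitrite effect at 3 h minus that at 15 min had a median of -0.30 over the members. By edgeR's adjusted p it differed in 0 members, and in 0% of all genes in either direction. An unadjusted p under 0.05 was reached by 7 members (10.6%, background 6%). So the step between the early times was not resolved for any single member.

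Under the labels as given, the member means in the nitrite arm were level over the first 3 h, as were those of nearly all genes. Every one of the 66 means at 3 h was within 0.67 to 1.5 times the 15 min mean (background 97.6%). Without the 3 libraries that stand apart this held for 45 members (68.2%, background 70.8%). In the fit to all libraries, the log2 difference of 3 h over 15 min ran from -0.39 to 0.60 with a median of 0.00. By edgeR's adjusted p, 0 members were called in either direction, against a background of 0% in each. An unadjusted p under 0.05 occurred in 1 member (background 1.45%), and DESeq2 called 0. Neither fit matched the libraries of a flask. An edgeR fit with terms for the replicate number within each arm also called 0 members (all genes 0). Libraries of 3 h lay below those of 15 min without overlap in 1 member (background 1.83%) and above them in 0 (background 1.97%). The log2 difference was below 0 in 34 members (51.5%, all genes 51%), and in 26 without the 3 libraries (39.4%, all genes 48%). The mean level declined in order from 15 min to 3 h to 24 h in 34 members. The rule chose low 24 h nitrite levels, so this order adds only the sign of the early step. The summed level of the members in the nitrite arm was 1133 to 1228 CPM in the libraries of 15 min, 1134 to 1181 CPM in those of 3 h and 318 to 325 CPM in those of 24 h.

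These level means hide opposite movements by replicate number. In the mean of numbers 1 and 3 and in number 2 alone, the 3 h minus 15 min differences of the 66 members ran against each other, with a correlation across genes of -0.93. The signs were opposite in 57 members (86.4%), and in 81.4% of all tested genes, where the correlation was -0.82. Genes are not independent replicates, and all these values share 6 libraries. Cre14.g615350 showed the pattern at its widest. It had 40.8, 9.86 and 39.1 CPM at 3 h and 12.3, 40.8 and 8.15 CPM at 15 min with nitrite, so number 2 was high where the others were low and low where they were high.

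**Figure D5:**
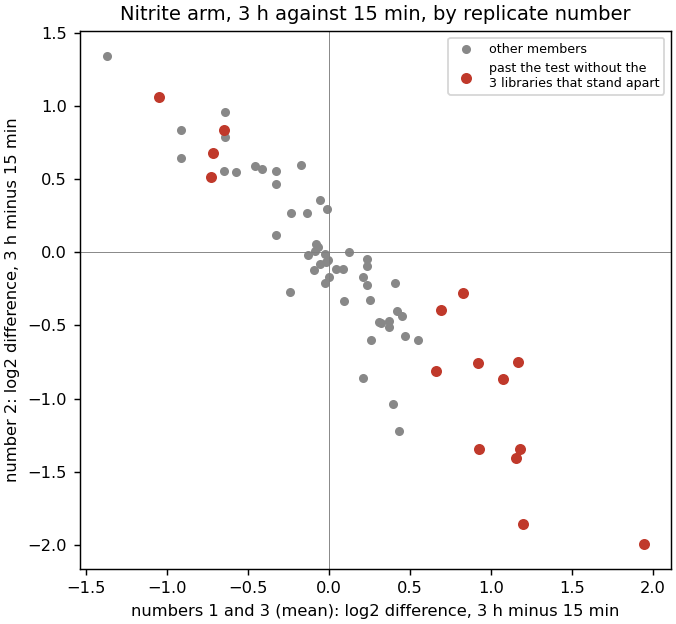
Difference of 3 h minus 15 min in log2(CPM + 0.5) within the nitrite arm for each member, in number 2 (vertical) against the mean of numbers 1 and 3 (horizontal), with the 15 members past the test without the 3 libraries that stand apart in red. The points run from upper left to lower right, and all 15 red points, picked from numbers 1 and 3 alone, have opposite signs on the axes.

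Without the 3 libraries that stand apart, 11 members were higher at 3 h than at 15 min in the nitrite arm (16.7%, background 10.2%) and 4 were lower (6.06%, background 10.7%), where the full fit called 0. In all 15 the number 2 libraries went the other way. These members were picked by a fit to numbers 1 and 3 alone, and signs were opposite in 81.4% of all tested genes. The share among all genes called in that fit was not computed, so the 15 are no separate evidence of the pattern. Cre14.g615350 had the largest rise, 2.0 on the log2 scale (edgeR adjusted p = 0.00448, SE 0.41). The other 10 that rose were Cre10.g446500 (1.33), Cre02.g107950 (1.30), Cre08.g369400 (1.27), Cre03.g196550 (1.26), Cre06.g278236 (1.19), Cre16.g680902 (1.03), Cre06.g278235 (0.99), Cre06.g307100 (0.92), Cre12.g518400 (0.75) and Cre17.g702150 (0.74). Those that fell were Cre17.g741000, by 1.08, Cre10.g420850, by 0.71, Cre03.g144564, by 0.69, and Cre17.g718500, by 0.63. Each number 2 library of these times lay with the libraries of the other time on the second component, as given above, so the counts of 0 and the level means hold only under the labels as deposited.

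In the control arm many members stood higher at 3 h than at 15 min, as did many other genes that were low with nitrite at 24 h. The log2 difference of 3 h over 15 min had a median of 0.32 in the members and 0.01 in all tested genes, or -0.02 and -0.32 with library totals alone, so the members lay above all genes in both. It was below 0 in 19 of 66 members (28.8%), and in 49.2% of all tested genes. Control libraries of 3 h lay above those of 15 min without overlap in 28 members (background 15.9%) and below them in 2 (background 14.4%). By edgeR's adjusted p, 0 members were called lower (background 0.391%) and 2 higher (background 0.87%), Cre16.g688050 (0.95) and Cre03.g196550 (1.42). Without the 3 libraries that stand apart, 13 were called higher (19.7%, background 6.04%). The non-overlapping members were then 34 above (51.5%, background 21.3%) and 3 below (4.55%, background 19.8%), and 14 members were below 0 (21.2%, background 50%). In the 100 genes low at 24 h with unsteady controls the median was 0.25, 76 were above 0, 38 did not overlap with 3 h higher and 5 were called higher. These values share the 15 min controls with the rule and are a description.

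The 3 h control mean was above both the 15 min and the 24 h control means in 44 members (66.7%, background 30.1%). It was at least 1.5 times both in 12 (18.2%, background 6.56%) and at least 2 times both in 5 (7.58%, background 2.03%). Without control 3 h number 3 these were 47 (background 29.4%), 13 (background 5.64%) and 3 (background 2.05%). The rule holds the 15 min and 24 h means close to each other, and the shares among the 4632 other genes with steady controls were 30.8%, 3.93% and 0.691% in all libraries. Among the 100 genes low at 24 h with unsteady controls they were 55%, 11% and 2%. In these 5 the control means at 15 min, 3 h and 24 h were 17.6, 52.6 and 12.8 CPM for Cre14.g615350 and 4.16, 12.5 and 5.17 CPM for Cre10.g446500. For Cre06.g278236 they were 16.4, 34.9 and 13.7 CPM, for Cre04.g223050 20.6, 41.7 and 16.9 CPM, and for Cre06.g278235 9.35, 18.8 and 6.68 CPM. The nitrite means at 3 h were below the 3 h controls in all 5, at 29.9, 6.10, 20.6, 15.0 and 11.8 CPM in the same order of genes. Only Cre04.g223050 passed the test of that difference. Over all members, the 3 h nitrite mean was below both the 3 h and the 15 min control means in 36. The same share over all genes was not computed.

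Cre14.g615350 is the only member on a list of 3 loci entered for nitric oxide from prior knowledge, which the files cannot check. At 3 h it stood at 40.8, 9.86 and 39.1 CPM with nitrite and at 49.1, 57.4 and 51.2 CPM without. The groups did not overlap, but with a log2 fold change of -0.82 (SE 0.54) its edgeR adjusted p was 0.387. The other loci of the list, Cre14.g615400 and Cre01.g007950, had log2 fold changes of -0.07 and 0.50 at 3 h, and 0 of 3 passed. Of a list of 6 loci entered for nitrate and nitrite, 3 were tested and 0 are members. At 3 h 1 was called higher with nitrite than without (background 1.95%) and 0 lower (background 0.774%). The locus called higher was Cre04.g214500 (log2 fold change 1.04, edgeR adjusted p = 0.0438, SE 0.28). Cre09.g410800 (-1.64, edgeR adjusted p = 0.0513) and Cre09.g410900 (-2.13, edgeR adjusted p = 0.162) were lower without passing. Their 3 h means were 1.79 and 0.409 CPM with nitrite and 5.46 and 1.70 CPM without.

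Members lay on 15 of the 17 chromosomes. There were 9 on chromosome 17 (818 genes tested), 8 each on 3 (1293) and 12 (1347), 7 on 6 (1190), and 0 on 7 (866) and 15 (153). The median gene span was 4442 bases in the members and 4688 bases in all tested genes. In 4 places a pair of members had no other locus between them, which involved 8 members, and 2 further pairs had 2 loci between them. Whether members lay closer together than other genes was not tested.

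Of the adjacent pairs, Cre06.g278235 and Cre06.g278236 were alike over the times. At 3 h Cre06.g278236 had 27.3, 8.90 and 25.4 CPM with nitrite and 29.7, 35.7 and 39.3 CPM without, and Cre06.g278235 had 14.1, 5.84 and 15.6 CPM with nitrite and 20.9, 21.8 and 13.8 CPM without. In both, nitrite number 2 was the lowest library. At 24 h Cre06.g278236 had 3.23, 2.05 and 2.99 CPM with nitrite and 18, 13.6 and 9.40 CPM without.

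Neighbours Cre06.g288900 and Cre06.g288908 had log2 fold changes of -0.93 and 0.03 at 3 h, and Cre12.g523000 and Cre12.g523026 had 0.35 and -0.44, none past the test. Cre17.g710700 and Cre17.g710750 overlap each other in the gene table, and since the strand setting of the counting is not given in the sources used here, their separate levels are uncertain. Their 24 h control means were 3.81 and 2.91 times the nitrite means on the scale with 0.5 CPM added. Of the pairs with 2 loci between, Cre09.g406600 and Cre09.g406700 had -0.62 and 0.22 at 3 h, and Cre17.g696700 and Cre17.g696850 had -0.53 and -0.56. The sign at 3 h was the same within 3 of the 6 pairs.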

How the data were processed

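Per the labels' protocols, RNA came from a NucleoSpin kit for plants, and the TruSeq mRNA libraries keep the strand. The submitters' processing notes list TopHat2 2.0.13, an aligner for spliced reads, and HTSeq, a read counter. The build was not given in the sources used here, nor were the strand setting and the handling of multiply aligned reads. The authors deposited raw counts of reads per gene, 1 table per library. The 5 HTSeq summary lines were kept out of totals and tests. Reads outside genes made up 0.892% to 1.67% of each table.

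From the counts, features were filtered by group with filterByExpr of edgeR at a minimum count of 10, which removed 4202 features and kept all 66 members by construction. TMM factors (0.604 to 1.44) scaled the libraries, and CPM were computed with them. All 18 libraries entered 1 edgeR 4.0.16 model (R 4.3.3) with a mean per group, 12 residual degrees of freedom and the robust quasi-likelihood F test. P-values were adjusted by Benjamini-Hochberg over 13564 features, with a threshold of 0.05. SE is the fold change over the square root of F. The fit was run on simulated counts with known changes at 3 h. No simulated library was made to stand apart from its group, so that run does not cover such libraries. DESeq2 1.42.0, other scalings and filters, a replicate block and left-out libraries were tried.

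The members, gene lists and tests were chosen with earlier results of these data known. Genes named are the 6 lowest 24 h ratios, the 6 highest 24 h control levels, the members past the test at 3 h, list members and those at the limits. Others were named after their values were seen. Libraries of a group differed by more than sampling noise (smallest chi-square per degree of freedom 4.02). Replicate numbers did not pair the arms.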

Additional observations from a re-analysis of the deposited data

Results flagged for a closer look

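In 2 members, every nitrite library lay above every control at 15 min and below every control at 3 h, as in 0.265% of all tested genes. They are given here because they showed it, and without the 3 libraries that stand apart the pattern held in 4 members (6.06%) and 2.8% of all genes. Cre12.g546800 had 11.3, 10.2 and 9.60 CPM with nitrite and 8.49, 9.47 and 9.46 CPM without at 15 min. At 3 h it had 10.1, 10.2 and 12.8 CPM with nitrite and 13.4, 14.7 and 15.3 CPM without. The nitrite effect at 3 h minus that at 15 min was -0.57 on the log2 scale (edgeR adjusted p = 0.812, SE 0.25), so the difference did not pass the test.

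Cre03.g200431 had 14.6, 15.7 and 13.4 CPM with nitrite and 11.9, 12 and 13.3 CPM without at 15 min, and 14.3, 13.5 and 13.3 CPM with nitrite and 16.5, 20.5 and 16.6 CPM without at 3 h. Its effect differed by -0.62 (edgeR adjusted p = 0.812, SE 0.28), again not past the test. In both genes the nitrite level hardly moved between the times and the control level was higher at 3 h.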

How the results depend on the processing

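The 66 members numbered 167 with library totals alone (45 shared), 28 with a 24 h ratio of at most 0.3, 187 with at most 0.5 and 43 with narrower limits on the control ratio; leaving out 1 library gave 53 to 99. The 6 calls at 3 h (all genes 0.774%) became 0 with library totals alone (0.0221%) or with a fit to the compared groups alone (0.0237%), 3 with the replicate block (0.354%), 2 without the 3 libraries that stand apart (0.729%) and 11 with DESeq2 (2.51%; all 6 among them); leaving out 1 library gave 0 to 12, the last without control 3 h number 1 (4.05%). The higher counts came with more calls over all genes. The replicate numbers did not pair the libraries, with correlations between same-numbered nitrite and control deviations at 3 h of 0.00, -0.07 and 0.08. Without control 24 h number 3, 9 were called (1%).

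With the 3 libraries that stand apart left out, the nitrite arm had 4 members lower and 11 higher at 3 h than at 15 min, against 0 and 0, and 15 min had 1 member lower, against 0; 41 members did not overlap at 3 h. The 3 h median of -0.39 became -0.092 with library totals alone. The control arm median of 0.32 became 0.25 without those 3 libraries and -0.018 with library totals alone, where the scaling itself shifts all genes.

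Signs at 3 h turned with library totals alone for Cre08.g358560 (0.0074), Cre06.g307100 (0.065) and Cre12.g496350 (0.048). They turned without the 3 libraries for Cre10.g421150 (-0.43) and Cre09.g406700 (-0.13). Leaving out 1 library gave -0.32 to 0.42 for Cre10.g421150 and -1.01 to 5.4e-05 for Cre08.g358560. Apart from the shift of scaling, the cause of these changes was not tested. The 13 other results at 3 h with a sign, among the named genes, kept it under every alternative. Few reads at 24 h with nitrite limit the ratios of the lowest members.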
